A study of Mus musculus with 16 samples.

Results

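A set of 10 genes of the NF-kappa-B pathway was followed in mouse microglia, with 5 subunits (Nfkb1, Nfkb2, Rel, Rela and Relb), 4 inhibitors and feedback genes (Nfkbia, Nfkbie, Nfkbiz and Tnfaip3) and 1 kinase subunit (Ikbkb). They were taken by symbol from the deposited table, and all 10 had a row among its 17951 genes. NF-kappa-B is a family of dimeric transcription factors that wait in the cytoplasm bound to I-kappa-B proteins. Signals from Toll-like, cytokine and C-type lectin receptors activate the IKK kinase complex, which marks the I-kappa-B proteins for degradation so that the dimers can enter the nucleus. Among the genes that the dimers switch on are their own inhibitors, which closes a negative feedback loop, and in microglia the pathway is best known for driving cytokine and chemokine genes.

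The libraries were made from total RNA of sorted microglia, the resident macrophages of the brain, after injection of Methoxy-X04 (Me-X04), a dye that binds amyloid and enters the brain. WT microglia came from 7 wild-type mice labelled as 2 months old, and the transgenic (TG) microglia came from 5xFAD mice labelled as 6 months old. 5xFAD mice carry transgenes under the neuronal Thy1 promoter and form amyloid plaques. TG cells were sorted into 5 libraries without dye (TG Me-X04-) and 4 libraries with dye (TG Me-X04+), which is read as uptake of amyloid, while the WT cells were taken without dye. All cells were gated as Cd11b and Cd45 positive, and the study's methods add live single cells positive for Cx3cr1. Each TG Me-X04+ library shares its number with a TG Me-X04- library, and the same number is read here as the same animal. By the age labels, age and genotype cannot be told apart in the comparisons with WT. The study's methods give other ages that they do not tie to genotype. Cells that took up dye were not compared with dye-positive WT cells, so genotype and uptake are separated only within the TG mice.

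The 16 libraries held 15623664 to 27579017 reads in the table's genes. All 11 microglia markers were present, with a summed level of 4641 to 8630 RPKM. The markers of neurons, oligodendrocytes, T cells, neutrophils and monocytes stayed under 20 RPKM in sum in every library. Of these lists, 3 of 5 markers had a row for neurons and for oligodendrocytes. Only 2 of 5 had a row for neutrophils and for monocytes, and 1 of 5 for T cells. The neutrophil sum had a median of 6.075 RPKM in TG Me-X04+, against 0.4048 in WT and 0.3213 in TG Me-X04-. The groups overlapped, and the highest neutrophil sum, 19.61, was in TG Me-X04-. No limma adjusted p of its genes, S100a8 and S100a9, was under 0.05. Astrocyte markers (4 of 5 had a row) summed to 9.70 to 29.4 RPKM, and their median was 11.4 in TG Me-X04+ against 17.1 in WT and 18.2 in TG Me-X04-. Most of this sum was Slc1a3, whose log2 fold change in TG Me-X04+ was -0.61 against TG Me-X04- and -0.68 against WT. Those of Gfap, Aqp4 and Slc1a2 were also below 0 against TG Me-X04- (-0.98, -1.37 and -0.36). Against WT they were above 0 (1.25, 0.36 and 0.58). No adjusted p of limma was under 0.05 among these. Mitochondrial genes took 12.6% to 31.4% of the reads in WT, 20.6% to 44.8% in TG Me-X04- and 31.3% to 56.8% in TG Me-X04+. The libraries also fell into 2 sets that the labels do not name, found from the values after the group means were removed. Set A held WT 1 to 3 and replicates 1 and 2 of both TG groups, set B held the other 9 libraries, and this axis took 37.8% of the remaining variance. The methods name more than 1 sequencer without tying libraries to them, so what separates the sets was not tested. Because RNA was measured in bulk, fewer cells with a transcript and less of it per cell cannot be told apart.

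Values are log2 RPKM, reads scaled for gene length and library size, with the scaling and small prior count of the study's own processing. A gene was called when the adjusted p of limma (Benjamini-Hochberg over all 17951 genes) was under 0.05 and the log2 fold change was at least 0.7 in size. In TG Me-X04+ microglia set against TG Me-X04-, 1 of the 10 genes was called, Nfkbie, which was lower, against 5.49% of all genes, and 3 had an unadjusted p under 0.05, against 18.7%. Between TG Me-X04- and WT none was called by limma, against 0.201% of all genes, while 1 had an unadjusted p under 0.05, against 5.18%. Between TG Me-X04+ and WT 3 were called, Nfkbiz higher and Nfkbie and Rel lower, against 14.3% of all genes (8.25% higher and 6.02% lower), and 4 had an unadjusted p under 0.05, against 27.8%. Groups that did not overlap were found for 2 of the 10 genes between the TG groups (7.93% of all genes), for none between TG Me-X04- and WT (1.06%) and for 3 of TG Me-X04+ against WT (10.5%). Counts this small over 10 genes are near what those backgrounds give, so the results below concern single genes and not the family. The 3 comparisons share libraries in pairs and are not independent of each other.

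For 6 of the 10 genes RefSeq promoter windows on GRCm38.p6 were at hand, and the 250 bases before each start were searched for the kappa-B consensus, the letters that NF-kappa-B dimers bind. The consensus reads the same on both strands, and overlapping matches were counted. Of all 32817 windows of this length 9.55% held a match, and 7 of the 9 windows of Nfkb2, Rel, Rela, Nfkbia, Nfkbie and Tnfaip3 did. Windows of 1 gene are not independent, and 3 of the 9 were of Nfkb2 and 2 of Tnfaip3. By gene, 5 of the 6 held a match in any window, against 10.8% of 26996 genes. Rela had none. Nfkb1, Relb, Nfkbiz and Ikbkb were not searched. The windows of Nfkbie and Rel, the called genes with an entry, and of Nfkbia, the best known NF-kappa-B target among the inhibitors, are printed 5′ to 3′ with the matches in capitals. They lie at chr17:45555450-45555699 on the plus strand, at chr11:23770971-23771219 on the minus strand and at chr12:55492648-55492897 on the minus strand, outside annotated exons.
Nfkbie: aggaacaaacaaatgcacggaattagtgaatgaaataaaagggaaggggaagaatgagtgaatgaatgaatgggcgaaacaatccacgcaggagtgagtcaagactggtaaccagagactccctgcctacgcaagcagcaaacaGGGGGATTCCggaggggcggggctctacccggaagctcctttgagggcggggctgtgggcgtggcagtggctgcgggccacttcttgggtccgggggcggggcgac
Rel: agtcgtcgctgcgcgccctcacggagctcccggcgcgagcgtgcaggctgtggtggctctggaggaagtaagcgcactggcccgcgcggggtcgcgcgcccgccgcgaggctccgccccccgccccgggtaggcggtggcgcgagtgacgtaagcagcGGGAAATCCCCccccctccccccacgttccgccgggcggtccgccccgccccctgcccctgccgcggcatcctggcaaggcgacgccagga
Nfkbia: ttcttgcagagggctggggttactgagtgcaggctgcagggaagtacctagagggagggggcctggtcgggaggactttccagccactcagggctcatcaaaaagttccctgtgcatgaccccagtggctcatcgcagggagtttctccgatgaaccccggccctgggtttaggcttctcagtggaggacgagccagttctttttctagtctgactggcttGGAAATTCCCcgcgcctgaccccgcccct
The match began 106 bases before the start in Nfkbie and 29 bases before it in Nfkbia, and in Rel 2 overlapping matches began 92 and 91 bases before it. A match of letters is a description of the sequence and does not show that a dimer sits there in microglia.

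Levels per length were compared over the 16 libraries. Rel had the highest mean at 4.59 log2 RPKM ± 0.52 (SD, n = 16). Nfkb1 (3.29), Rela (3.27) and Ikbkb (3.27) followed and differed from each other by less than their SDs of 0.29 to 0.42. Nfkbia stood at 2.85 ± 0.70. Tnfaip3 had a mean of 2.14. Nfkbie (2.15) and Nfkbiz (2.05) had like means over all libraries but not within the groups, where the mean in WT was 2.89 for Nfkbie and 1.32 for Nfkbiz, and that in TG Me-X04+ 0.75 and 3.14. Nfkb2 (0.23) and Relb (-1.05), the subunits of the non-canonical branch, were lowest.

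**Figure D1:**
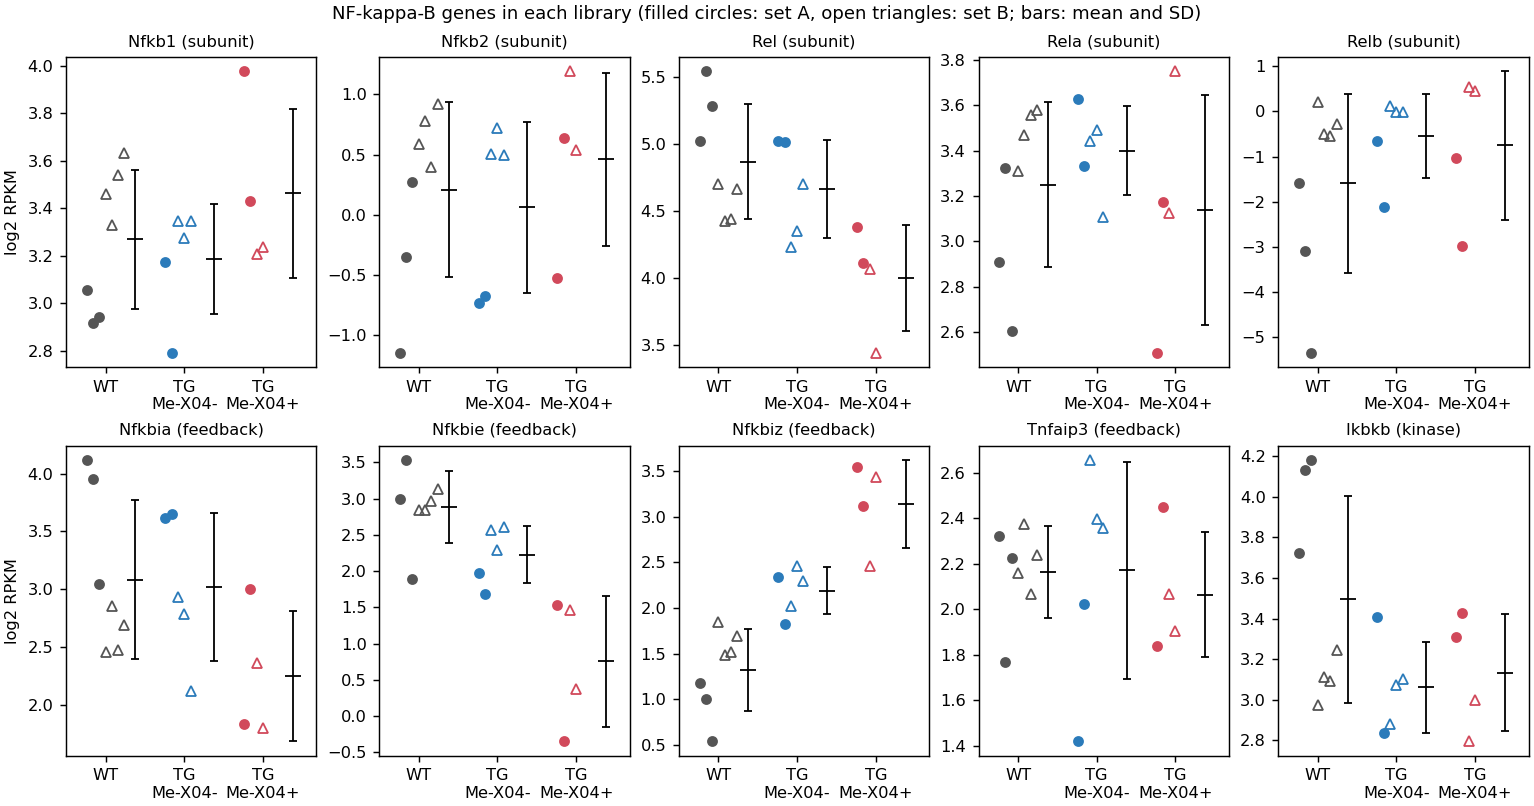
Log2 RPKM (y axis) of each gene per library (x axis: 7 WT, 5 TG Me-X04-, then 4 TG Me-X04+), with filled circles for set A, open triangles for set B and bars for the mean and SD of the group; y axes differ between panels. Nfkbie runs from a WT mean of 2.89 to a TG Me-X04+ mean of 0.75, Nfkbiz from 1.32 to 3.14, and Rel is lowest in TG Me-X04+ within each set.

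Rel encodes c-Rel, a subunit with a transactivation domain that is used mainly in blood and immune cells (chromosome 11, 23736847 to 23770970, minus strand, GRCm38). In WT it ranged from 4.42 to 5.55 log2 RPKM with a median of 4.70. TG Me-X04- libraries 1 to 5 held 5.02, 5.02, 4.23, 4.35 and 4.70 log2 RPKM. TG Me-X04+ libraries 1 to 4 held 4.38, 4.11, 4.07 and 3.44. All 4 TG Me-X04+ libraries were below all 7 WT libraries, but replicate 1 stood above 2 of the TG Me-X04- libraries. Rel was 1.83-fold lower in TG Me-X04+ than in WT (log2 fold change -0.87, SE 0.25, limma adjusted p 0.0259). Against TG Me-X04- the difference was -0.67 (SE 0.27, adjusted p 0.18), which did not pass.

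The overlap with TG Me-X04- was between libraries of different sets. In set A, Rel was 4.11 to 4.38 log2 RPKM in TG Me-X04+ and 5.02 in both TG Me-X04- libraries. In set B it was 3.44 to 4.07 in TG Me-X04+ and 4.23 to 4.70 in TG Me-X04-. So within each set every TG Me-X04+ library was below every other library. The difference from TG Me-X04- was called in 3 of 32 alternatives. These were the fit with a term for the set (-0.73, adjusted p 0.00506), quantile normalization (-0.92, adjusted p 0.0271) and scaling without mitochondrial genes (-0.94, adjusted p 0.0382). The sets were drawn from these same values. Over all genes 2142 were called between the TG groups with the set term, against 986 in the main fit. The difference between the TG groups was not called with the animal as a block within the TG libraries (-0.66, adjusted p 0.0832). Nor was it called in the fit of all 3 groups with the replicate number as a block (-0.73, adjusted p 0.0855). In that fit WT libraries share their number with TG libraries but not an animal. The difference from WT was -1.04 within set A (adjusted p 0.026) and -0.81 within set B (adjusted p 0.0179). The call against WT was lost in 2 of 31 alternatives, without TG Me-X04+ replicate 4, where the difference was -0.69, and with median centring (-0.85, adjusted p 0.073).

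The other subunits gave no call in any of the 3 comparisons. Nfkb1 encodes p105, which is processed to p50 and lacks a transactivation domain of its own in that form (chromosome 3, 135584655 to 135691547, minus strand). It ranged from 2.92 to 3.63 log2 RPKM in WT (median 3.33). It was 3.17, 2.79, 3.35, 3.28 and 3.35 in TG Me-X04- and 3.98, 3.43, 3.21 and 3.24 in TG Me-X04+. The groups overlapped, with the highest value in TG Me-X04+ replicate 1. The TG Me-X04+ minus TG Me-X04- difference was 0.28 (95% interval -0.20 to 0.75) and the TG Me-X04+ minus WT difference 0.19 (-0.25 to 0.64).

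Rela encodes p65, the transactivating partner of the canonical dimer (chromosome 19, 5637483 to 5648130, plus strand). It ranged from 2.60 to 3.58 log2 RPKM in WT (median 3.33). It was 3.63, 3.33, 3.44, 3.49 and 3.11 in TG Me-X04- and 2.51, 3.17, 3.13 and 3.75 in TG Me-X04+. TG Me-X04+ held both the lowest and the highest value, so the groups overlapped fully. The 95% interval of the TG Me-X04+ minus TG Me-X04- difference, -0.80 to 0.28, leaves room for a fall past 0.7 but not for a rise of that size.

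Nfkb2 encodes p100, the precursor of p52, and Relb encodes its usual partner. Both had few reads. Nfkb2 (chromosome 19, 46304320 to 46312385, plus strand) ranged from -1.15 to 0.92 log2 RPKM in WT, from -0.74 to 0.72 in TG Me-X04- and from -0.52 to 1.19 in TG Me-X04+, on 23 to 170 reads. Relb (chromosome 7, 19606217 to 19629438, minus strand) ranged from -5.34 to 0.20 in WT, from -2.11 to 0.11 in TG Me-X04- and from -2.97 to 0.54 in TG Me-X04+, on 0 to 127 reads. WT replicate 3 was the library with no Relb read. Set B was higher than set A for both genes in all 3 groups, by mean. For Relb the 95% interval of the TG Me-X04+ minus TG Me-X04- difference, -2.35 to 1.92, was too wide to place its direction. By set, A before B, its means were -2.00 and 0.49 in TG Me-X04+ and -3.33 and -0.28 in WT.

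Nfkbie encodes I-kappa-B-epsilon, which holds dimers of p65 and c-Rel in the cytoplasm and is itself induced by NF-kappa-B (chromosome 17, 45555703 to 45563169, plus strand). In WT it ranged from 1.90 to 3.54 log2 RPKM with a median of 2.96. TG Me-X04- libraries 1 to 5 held 1.98, 1.68, 2.57, 2.30 and 2.61. TG Me-X04+ libraries 1 to 4 held 1.53, -0.35, 1.46 and 0.38, on 27 to 150 reads. Every TG Me-X04+ library was below every other library, and TG Me-X04- overlapped WT only through WT replicate 3 and its value of 1.90. Of all genes, 3.14% had TG Me-X04+ wholly below TG Me-X04- and 3.97% had it wholly below WT.

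Nfkbie was 4.39-fold lower in TG Me-X04+ than in WT (log2 fold change -2.14, SE 0.36, limma adjusted p 0.000575). It was 2.78-fold lower than in TG Me-X04- (-1.48, SE 0.39, adjusted p 0.0331). With the animal as a block, the same-animal comparison within the TG libraries gave -1.38 (adjusted p 0.0797). The fit of all 3 groups with the replicate number as a block, which WT libraries share without sharing an animal, gave -1.43 (adjusted p 0.0993). The call between the TG groups was lost in both. It was also lost when any of TG Me-X04- replicates 3, 4 or 5 or TG Me-X04+ replicates 2 or 4 was left out, and over all fits without 1 library the difference lay between -1.73 and -1.11. Within set B the TG groups differed by -1.58 (adjusted p 0.00743) and within set A by -1.24 (adjusted p 0.499). The difference from WT was -2.03 within set B (adjusted p 0.000893) and -2.22 within set A (adjusted p 0.0883). TG Me-X04- against WT gave -0.66 (adjusted p 0.999), which did not pass.

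Nfkbiz encodes I-kappa-B-zeta, a nuclear member of the I-kappa-B family that is induced rapidly by Toll-like receptor and interleukin-1 signals (chromosome 16, 55811375 to 55838899, minus strand). Unlike the cytoplasmic inhibitors it also acts with p50 as an activator of secondary response genes, so it is only in part a feedback gene. In WT it ranged from 0.53 to 1.84 log2 RPKM with a median of 1.49. TG Me-X04- libraries 1 to 5 held 2.35, 1.83, 2.03, 2.46 and 2.29. TG Me-X04+ libraries 1 to 4 held 3.54, 3.12, 2.46 and 3.43. Every TG Me-X04+ library was above every other library, by a small margin for replicate 3, and WT and TG Me-X04- overlapped only between WT replicate 4 and TG Me-X04- replicate 2. Of all genes, 4.8% had TG Me-X04+ wholly above TG Me-X04- and 6.56% had it wholly above WT.

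Nfkbiz was 3.53-fold higher in TG Me-X04+ than in WT (log2 fold change 1.82, SE 0.28, limma adjusted p 0.00024). This call held in all 31 alternatives that were run. The difference was 2.43 within set A (adjusted p 0.00949) and 1.31 within set B (adjusted p 0.00738). Against TG Me-X04- it was 0.95 (SE 0.30, adjusted p 0.0767), and TG Me-X04- against WT it was 0.87 (SE 0.26, adjusted p 0.431), and neither passed. The comparison of the TG groups passed in 5 of 32 alternatives, among them the fit with a set term (0.98, adjusted p 0.024) and those without WT replicate 3 or TG Me-X04+ replicate 3, but not with the animal as a block (0.98, adjusted p 0.0633). The sets of the set-term fit were drawn from these same values, and over all genes it called 2142 between the TG groups, against 986 in the main fit.

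Nfkbia encodes I-kappa-B-alpha, the inhibitor that is resynthesized first after NF-kappa-B activation (chromosome 12, 55489410 to 55492647, minus strand). In WT it ranged from 2.45 to 4.12 log2 RPKM with a median of 2.85. TG Me-X04- libraries 1 to 5 held 3.61, 3.65, 2.93, 2.78 and 2.12. TG Me-X04+ libraries 1 to 4 held 1.83, 3.00, 2.36 and 1.80. The groups overlapped, and the 3 set A libraries of WT and the 2 of TG Me-X04- were each above all set B libraries of their group. The difference from WT was -0.84 (SE 0.38, adjusted p 0.161) and did not pass. It was -0.90 with a set term (adjusted p 0.019) and -1.20 in the fit with a replicate block (adjusted p 0.0156), and both of these passed. In the second fit WT libraries share their number with TG libraries but not an animal. The sets of the first fit were drawn from these same values, and over all genes 3919 were called with it, against 2562 in the main fit. Against TG Me-X04- the difference was -0.77 (adjusted p 0.331).

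Tnfaip3 encodes A20, the enzyme that edits ubiquitin chains and ends signalling upstream of IKK (chromosome 10, 19000910 to 19015657, minus strand). It ranged from 1.77 to 2.38 log2 RPKM in WT (median 2.22). It was 1.42, 2.02, 2.66, 2.40 and 2.36 in TG Me-X04- and 1.84, 2.45, 2.07 and 1.90 in TG Me-X04+. The 3 groups overlapped. The TG Me-X04+ minus WT difference was -0.10 (95% interval -0.61 to 0.41), which excludes a change of 0.7 in either direction.

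Ikbkb encodes IKK-beta, the catalytic subunit that phosphorylates the I-kappa-B proteins (chromosome 8, 22659212 to 22706589, minus strand). It ranged from 2.97 to 4.18 log2 RPKM in WT (median 3.25). It was 3.41, 2.84, 2.88, 3.07 and 3.10 in TG Me-X04- and 3.31, 3.43, 2.79 and 3.00 in TG Me-X04+. The 3 set A libraries of WT, at 3.72 to 4.18, were above all other libraries. The groups overlapped, and the TG Me-X04+ minus TG Me-X04- difference was 0.07 (95% interval -0.50 to 0.65). Ikbkb overlaps the antisense gene Gm15346, Nfkb1 overlaps Gm43430 and Nfkb2 overlaps Psd. The strand of counting is not given in the sources used here, so reads of such partners cannot be told apart.

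**Figure D2:**
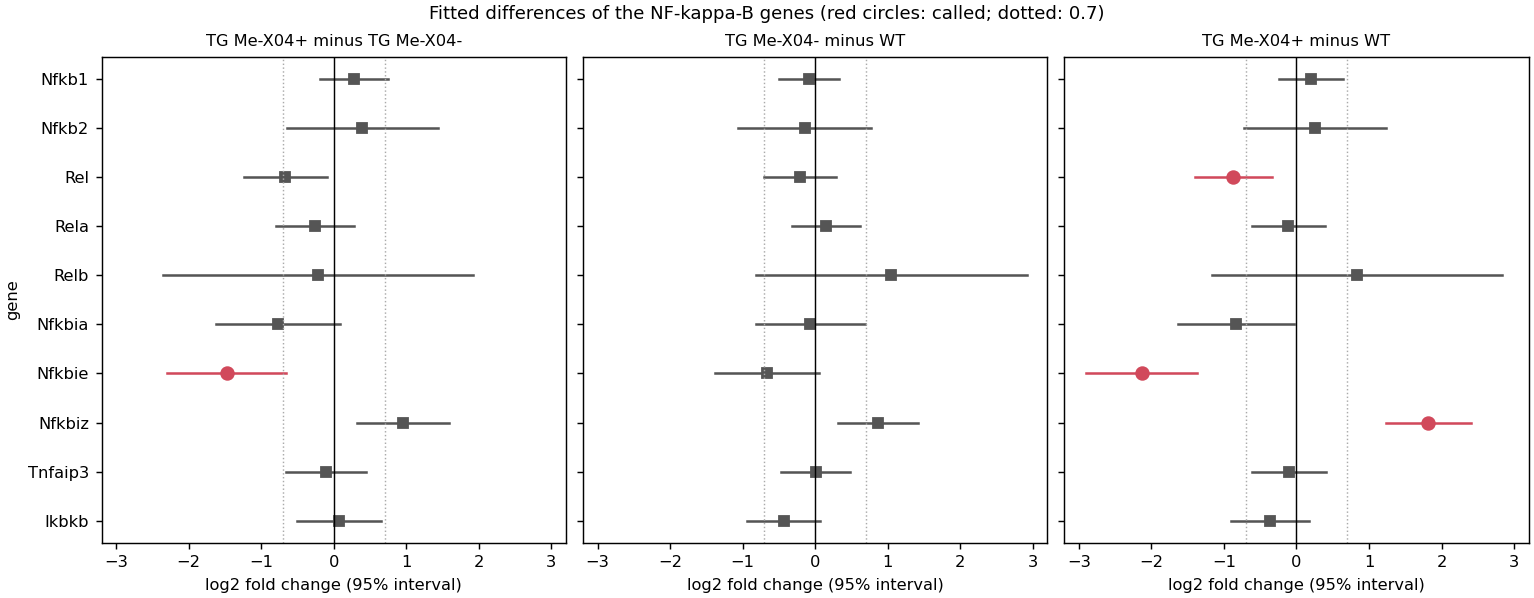
Fitted log2 fold changes (x axis) of the 10 genes (y axis) in the 3 comparisons, with 95% intervals; red circles are called genes, grey squares are not, and dotted lines mark 0.7. Nfkbie is called on the left (-1.48) and, with Rel (-0.87) and Nfkbiz (1.82), on the right, and no gene is called in the middle.

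Subunits and feedback genes were then set side by side within each library. The mean of the 4 feedback genes minus the mean of the 5 subunits was 0.36 ± 0.50 log2 RPKM in WT (SD, n = 7). It was 0.25 ± 0.23 in TG Me-X04- (n = 5). In TG Me-X04+ it was -0.01 ± 0.42 (n = 4). The 3 groups overlapped, and the difference was larger in set A (0.77 to 1.00) than in set B (-0.13 to 0.09) within WT. Within set B both TG Me-X04+ libraries, at -0.34 and -0.40, were below the 7 other libraries. Relb weighs on these values. Its mean in WT was -3.33 log2 RPKM in set A, on 0 to 20 reads, and -0.28 in set B. Without Relb the difference of class means became negative in WT and TG Me-X04-. The mean of the feedback genes alone was 1.88 to 2.19 log2 RPKM in TG Me-X04+ and 2.30 to 2.55 in TG Me-X04-, without overlap, and 1.93 to 2.65 in WT. These class means are a description over chosen genes and carry no p.

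The make-up inside each class was then described. Of the summed RPKM of the 4 feedback genes, Nfkbie made up 32.0% ± 6.85 in WT, 21.3% ± 6.45 in TG Me-X04- but 9.76% ± 5.67 in TG Me-X04+. Its shares in TG Me-X04+ (3.41% to 15.6%) met those in TG Me-X04- (13.8% to 29.9%) but lay below those in WT, which began at 20.6%. Nfkbiz made up 11.3% ± 4.27 in WT, 20.3% ± 4.12 in TG Me-X04- but a mean of 44.7% in TG Me-X04+. Its 4 TG Me-X04+ values ran from 31.4% to 55.9%, and the other libraries held 24.4% or less. Nfkbia made up 37.2% ± 11.3 in WT, 37.7% ± 14.1 in TG Me-X04- but 24.6% ± 8.90 in TG Me-X04+, and the groups overlapped. Tnfaip3 made up 19.6% to 20.9% by group mean.

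**Figure D3:**
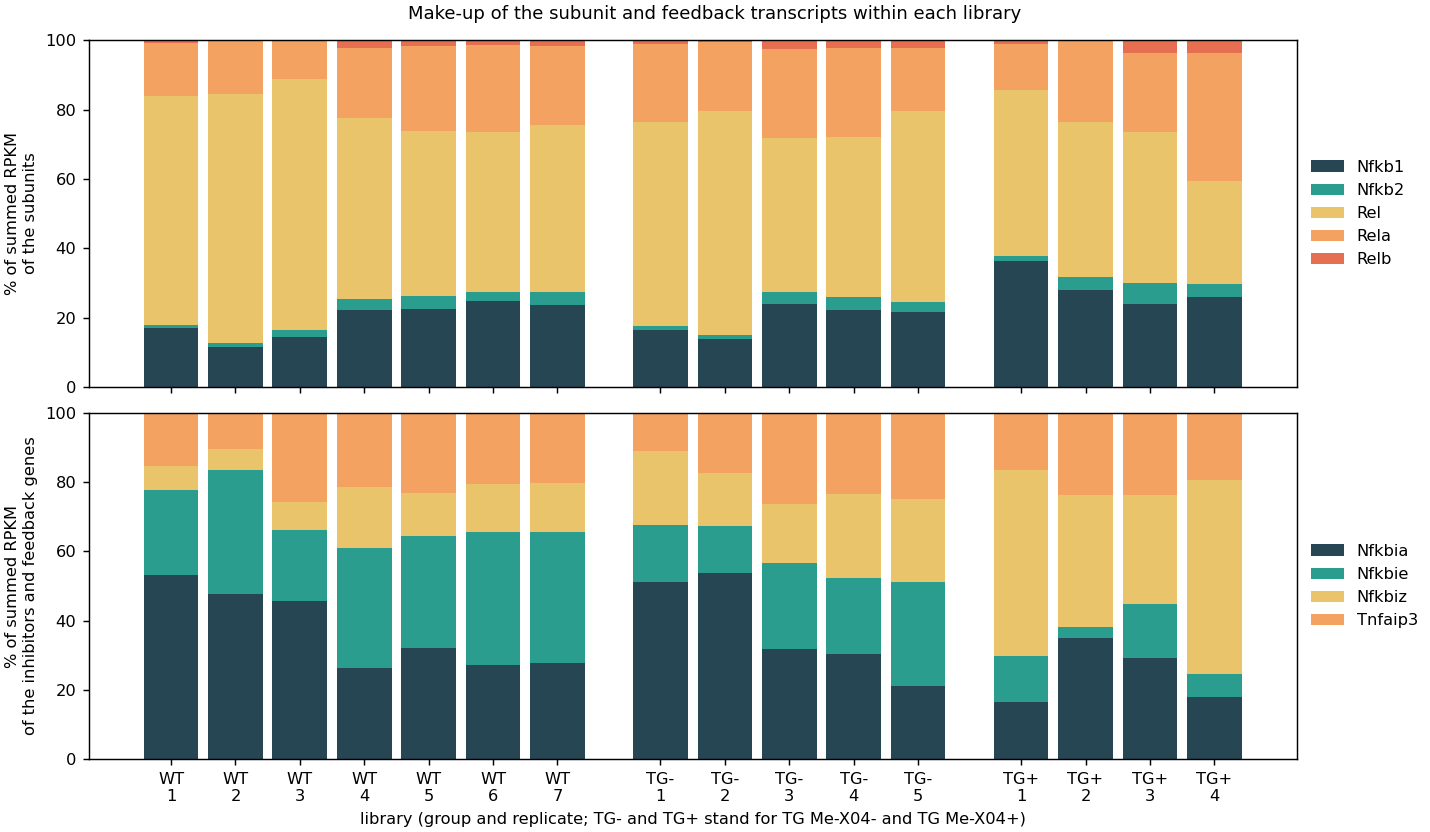
Share of each gene (y axis, % of the summed RPKM of its class) in each library (x axis), for the 5 subunits above and the 4 inhibitors and feedback genes below. Nfkbiz takes 31.4% to 55.9% of the feedback transcripts in TG Me-X04+ and at most 24.4% elsewhere, while Rel takes 29.7% to 47.9% of the subunit transcripts there.

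Within a library the ratio of 2 genes does not depend on how libraries were scaled. Nfkbiz minus Nfkbie was -1.57 ± 0.49 log2 RPKM in WT, with every library below 0 (-2.54 to -0.998). It was -0.04 ± 0.38 in TG Me-X04-, from -0.55 to 0.37. It was 2.39 ± 1.11 in TG Me-X04+, with every library above 0 (1.01 to 3.47). The 3 groups did not overlap in this difference, and the order was WT, then TG Me-X04-, then TG Me-X04+. Nfkbiz and Nfkbie entered this ratio because of their calls in the same libraries, so no test is given for it.

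**Figure D4:**
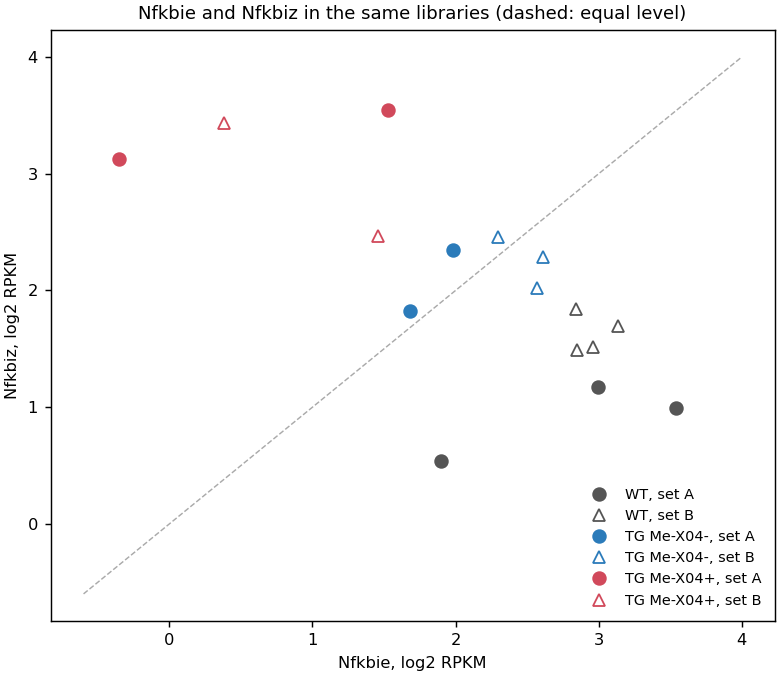
Nfkbie (x axis) and Nfkbiz (y axis) in log2 RPKM, 1 point per library, with the line of equal level. The 7 WT libraries lie below the line, the 4 TG Me-X04+ libraries above it, and the 5 TG Me-X04- libraries on both sides, from -0.55 to 0.37 around it.

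Among the subunits, Rel made up 57.8% ± 11.7 of the summed RPKM in WT, 53.9% ± 8.47 in TG Me-X04- but 41.4% ± 8.04 in TG Me-X04+. Nfkb1 made up 19.4% ± 5.10, 19.6% ± 4.30 and 28.5% ± 5.42. The shares of Rel overlapped between the groups, at 29.7% to 47.9% in TG Me-X04+, 44.3% to 64.5% in TG Me-X04- and 46.1% to 72.2% in WT. Those of Nfkb1 began at 24.0% in TG Me-X04+, where those of TG Me-X04- ended, and reached 24.7% in WT. Nfkb1 minus Rel was -1.60 ± 0.70 log2 RPKM in WT (-2.63 to -0.90), -1.48 ± 0.55 in TG Me-X04- (-2.23 to -0.88) but -0.53 ± 0.29 in TG Me-X04+ (-0.86 to -0.20). Transcripts of Nfkb1 stayed below those of Rel per length in every library, and the 4 TG Me-X04+ libraries were the closest to parity.

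Other measures were set beside these genes. The mitochondrial share of the reads had the highest median in TG Me-X04+ (43.6%, against 26.7% in WT and 21.1% in TG Me-X04-), and when libraries were scaled by the reads outside mitochondrial genes the log2 fold change against TG Me-X04- was -1.74 for Nfkbie (limma adjusted p 0.0212) and 0.68 for Nfkbiz (adjusted p 0.213). The mean level of the genes of cell dissociation had a median of 1.45 log2 RPKM in WT, 1.56 in TG Me-X04-, with TG Me-X04+ at 1.52 (19 of 21 genes had a row), and the range in TG Me-X04+ (1.05 to 2.02) spanned both others. Of the B cell markers, 3 of 5 had a row, and their sum was 152 to 286 RPKM in TG Me-X04+, 64.4 to 195 in TG Me-X04- and 89.5 to 171 in WT. Nearly all of this sum was Ighm, an immunoglobulin heavy chain, with a mean of 7.71 log2 RPKM in TG Me-X04+ and of 6.75 in each of the other groups (limma adjusted p against WT 0.0398). Cd79a and Cd79b, the signalling chains of the B cell receptor, had log2 fold changes below 0 between the TG groups (-0.49 and -0.044) and against WT (-1.05 and -0.30), none of which passed. Border macrophage markers summed to 1.21 to 18.6 RPKM in TG Me-X04+, 1.41 to 6.94 in TG Me-X04- and 1.37 to 4.12 in WT, with all 5 of 5 in the table. Endothelial markers (4 of 5 had a row) had a median sum of 2.02 RPKM in TG Me-X04+, against 10.6 in WT and 2.88 in TG Me-X04-. Of these, Pecam1 fell by 4.83 in TG Me-X04+ against WT (adjusted p 0.0036), while Flt1, with a mean of 0.37 log2 RPKM in TG Me-X04+ against -3.18 in TG Me-X04- and -5.50 in WT, was called higher in both comparisons (adjusted p 0.00608 and 1.17e-05). The part of these measures in the results for Nfkbie, Nfkbiz and Rel was not tested.

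The rest of the pathway was read from lists chosen by role. Over all genes 5.49% were called between the TG groups, 0.201% in TG Me-X04- against WT and 14.3% in TG Me-X04+ against WT, and 18.7%, 5.18% and 27.8% had an unadjusted p under 0.05. Of the 14 other genes of the IKK complex and the kinases upstream of it, which include NIK, the scaffold subunit NEMO and the TAK1-binding proteins, none was called in any comparison by limma, and 1 had an unadjusted p under 0.05, in TG Me-X04+ against WT. None of the 21 other inhibitors and deubiquitinases was called either. At that unadjusted p there were 2 between the TG groups, 2 in TG Me-X04- against WT and 4 in TG Me-X04+ against WT. Of the 20 adaptors and ubiquitin ligases, 1 was called, in TG Me-X04+ against WT, and 3, 0 and 7 had an unadjusted p under 0.05 in the 3 comparisons. The called gene was Peli1, a ubiquitin ligase of Toll-like receptor signalling. Peli1 ranged from 4.09 to 4.66 log2 RPKM in WT, 3.93 to 4.26 in TG Me-X04- and 3.47 to 3.77 in TG Me-X04+, which lay below both other groups. It was lower in TG Me-X04+ than in WT (-0.71, SE 0.15, adjusted p 0.00374), at the edge of the size threshold, and the call was lost in 9 of 31 alternatives. It was lost without WT replicate 3 or 7 or TG Me-X04+ replicate 2 or 3 (-0.76 to -0.66 over the fits without 1 library). It was also lost with array weights (-0.66), median centring (-0.69), a pseudocount of 1 (-0.67), within set A (-0.85, adjusted p 0.0688) and within set B (-0.60). The medians of these 3 lists for TG Me-X04+ against WT were -0.14 for the IKK list, 0.12 for inhibitors and -0.47 for adaptors, against -0.11 over all genes.

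Receptors moved in both directions. Of the 21 receptors with a row, 2 rose and 1 fell in TG Me-X04+ against TG Me-X04-, where 3.44% of all genes rose and 2.06% fell. Against WT 3 rose and 3 fell, where 8.25% of all genes rose and 6.02% fell. Clec7a, which encodes the beta-glucan receptor Dectin-1, was -0.54 to 1.69 log2 RPKM in WT, 2.73 to 3.79 in TG Me-X04- and 5.57 to 6.55 in TG Me-X04+. It rose by 2.98 from WT to TG Me-X04- (adjusted p 0.000444) and by 2.75 from there to TG Me-X04+ (adjusted p 0.000831) by limma. Tlr2, a receptor for bacterial lipoproteins, rose by 1.20 between the TG groups (SE 0.26, adjusted p 0.011). This call was lost under quantile normalization (0.83, adjusted p 0.0815) and when mitochondrial genes were left out of the scaling (0.92, adjusted p 0.0636).

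Tlr5, the flagellin receptor, fell by 2.70 between the TG groups (SE 0.54, adjusted p 0.00733). Its TG Me-X04+ values ran from -2.62 to 1.33 and met those of TG Me-X04- (1.10 to 2.65). The Tlr5 adjusted p was 0.0606 within the TG libraries with the replicate number as a block and 0.0651 with only these 2 groups in the fit. Il1r1, the interleukin-1 receptor, was at -5.20 to -1.12 log2 RPKM in WT, -0.55 to -0.43 in TG Me-X04- and 0.67 to 2.33 in TG Me-X04+, and was called against WT (4.19, adjusted p 0.000191). Tlr4 and Tnfrsf1b, the other genes that fell against WT, did so by 0.92 and 0.84.

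Known NF-kappa-B target genes gave the most calls. Of the 27 with a row, 8 rose and 0 fell in TG Me-X04+ against TG Me-X04-, where 3.44% of all genes rose and 2.06% fell. Called or not, 16 had a log2 fold change above 0 and 11 below 0. Below 0 were the cytokine genes Tnf (-2.00, limma adjusted p 0.261), Il6 (-0.90, adjusted p 0.2) and Il1a (-0.47, adjusted p 0.233). For Il6 all TG Me-X04+ libraries were below all TG Me-X04- libraries. In TG Me-X04- against WT 3 rose, where 0.189% of all genes rose. In TG Me-X04+ against WT 11 rose and 2 fell, where 8.25% of all genes rose and 6.02% fell. The list median was 0.47, 0.60 and 1.32 in these comparisons, against -0.09, 0.01 and -0.11 over all genes. The other 8 genes of the list (Il12b, Cxcl1, Cxcl2, Ptgs2, Nos2, Gadd45b, Ccl22 and Il10) had no row and could not be analysed. The authors had filtered out low genes, so these counts cover only targets that remained. The list was written with earlier results of these data known, and most of its genes also answer to other factors.

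The target genes named here are the 4 with the smallest p. Csf1, the growth factor of macrophages, had a mean of 0.80 log2 RPKM in WT and was 2.12 to 3.17 in TG Me-X04- and 4.98 to 5.84 in TG Me-X04+. It rose by 1.69 and then by 3.08 (adjusted p 0.00378 and 2.12e-05). Ccl3, a chemokine for myeloid cells, was 1.80 to 3.75 in WT, 4.78 to 5.77 in TG Me-X04- and 7.79 to 8.08 in TG Me-X04+. Ccl3 rose by 2.20 and then by 2.73 (adjusted p 0.00157 and 0.00023). For both genes the 3 groups did not overlap, and the order was that of Nfkbiz.

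Ccl4, the neighbouring chemokine, rose by 2.21 between the TG groups (SE 0.47, adjusted p 0.0107), from 1.81 to 3.75 up to 4.63 to 5.38 log2 RPKM, and this call was lost with array weights (adjusted p 0.056). Ch25h, cholesterol 25-hydroxylase, had 0 to 4 reads in the WT libraries, 10 to 70 in TG Me-X04- and 72 to 425 in TG Me-X04+, and rose by 3.22 between the TG groups (adjusted p 0.00236). The remaining 4 risers of that comparison were Cd83 (1.38) and the paralogs Bcl2a1a (1.18), Bcl2a1b (1.57) and Bcl2a1d (1.58), whose reads can be shared and which are uncertain as separate counts. Against WT, Plaur (2.47, limma adjusted p 0.00204), Ier3 (3.08, adjusted p 0.0136) and Cxcl10 (2.36, adjusted p 0.0488) rose as well, and Cflar (-0.95) and Il1a (-0.71) fell. Plaur in TG Me-X04+ lay wholly above WT, while Ier3 and Cxcl10 overlapped it. The mean of Cxcl10 was higher in TG Me-X04- (1.10 log2 RPKM) than in TG Me-X04+ (0.71). Within set A alone, with 2 libraries in each TG group, the calls of Ccl4, Ch25h, Clec7a, Tlr2, Tlr5, Egr2 and Atf3 between the TG groups were lost, while those of Csf1 and Ccl3 were not.

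**Figure D5:**
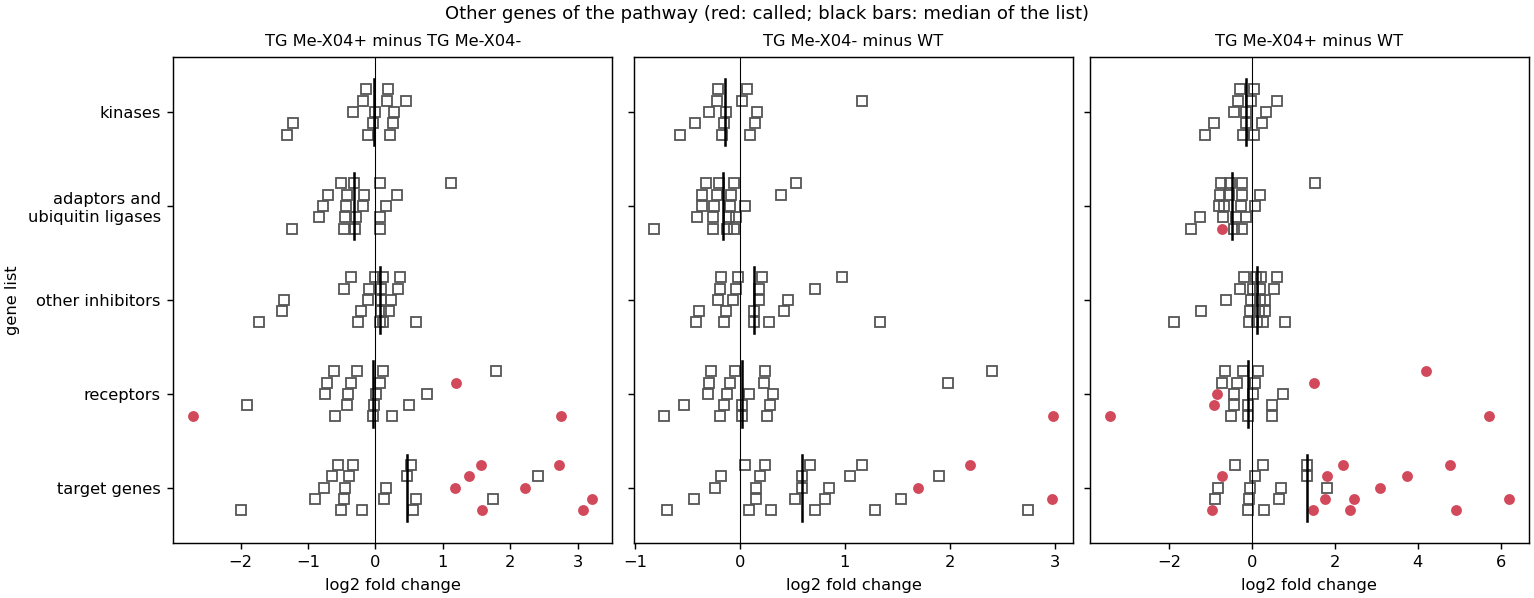
Log2 fold changes (x axis) of the other pathway genes by list (y axis) in the 3 comparisons, with called genes as red circles, others as open squares and the list median as a black bar; x axes differ between panels. The median of the target genes is 0.47, 0.60 and 1.32 from left to right, and the IKK list and the other inhibitors have no called gene.

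Of the 19 genes of cell dissociation, 2 rose and 1 fell between the TG groups, where 3.44% of all genes rose and 2.06% fell. In TG Me-X04- against WT 1 rose (0.189% of all genes), and in TG Me-X04+ against WT 3 rose and 4 fell (8.25% and 6.02%). The 4 with the smallest p were Egr2, Egr1 and Atf3, which encode rapidly induced transcription factors, and Hspa1b, a heat shock gene. Against WT, Egr2 (4.64), Egr1 (2.90) and Atf3 (2.94) rose in TG Me-X04+, with limma adjusted p of 1.11e-05, 4.42e-05 and 0.000151. Hspa1b was lower, at 0 to 25 reads in TG Me-X04+ and 34 to 201 in WT. The other 3 that fell against WT were its paralog Hspa1a (-3.41, adjusted p 0.0258), Ier5 (-1.09, adjusted p 0.0416) and Socs3 (-1.58, adjusted p 0.0191). Hspa1a and Hspa1b can share reads. In TG Me-X04- against WT, Egr2 rose by 2.53 (adjusted p 0.0343), a call that held in 15 of 31 alternatives. Between the TG groups Egr2 (2.11, adjusted p 0.0305) and Atf3 (1.84, adjusted p 0.0258) rose, and with the replicate block over all groups the adjusted p of Egr2 was 0.0575. When mitochondrial genes were left out of the scaling both calls were lost, for Egr2 at 1.84 (adjusted p 0.0603) and for Atf3 at 1.56 (adjusted p 0.0615). The call of Atf3 was lost without TG Me-X04- replicate 2 or 5 or TG Me-X04+ replicate 2 or 4 (1.60 to 1.96 over the fits without 1 library). That of Egr2 was lost without any 1 of the TG Me-X04- replicates or TG Me-X04+ replicate 2 or 3 (1.74 to 2.34). Socs3, an inhibitor of cytokine signalling, fell by 2.29 between the TG groups (adjusted p 0.00748).

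The genes whose log2 RPKM ran most like each member were taken over the 16 libraries from 9822 genes with a symbol and a mean of at least 0. These correlations are descriptions, since libraries share groups, sets and scaling. Nfkbiz ran most like Tnfsf8, the ligand of CD30 (r = 0.93), and Fxyd5, a membrane protein (r = 0.93). Nfkbie ran most like Crlf3 (r = 0.92) and Phyhd1 (r = 0.89), and Rel most like Tspan18 (r = 0.94) and Zbtb34 (r = 0.94). Nfkbia ran most like Lyn, a kinase of immune receptors (r = 0.93), and Lgmn, a lysosomal protease (r = 0.90).

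After the means of each group within each set were removed, r was 0.68 for Tnfsf8, 0.31 for Fxyd5, 0.74 for Crlf3, 0.58 for Phyhd1, 0.53 for Tspan18 and 0.50 for Zbtb34. Most of the likeness to Fxyd5 thus lay between groups and sets. Nfkb1 ran most like Unc119b (r = 0.85) and Pi4kb (0.84), Rela like Hcfc1 (0.90) and Map7d1 (0.89), and Ikbkb like Hpgds and Ube2d3 (0.93 for both). Nfkb2 ran most like Ppp4c (0.92) and Rragc (0.90), Relb like Ercc4 (0.95) and Ppt2 (0.94), and Tnfaip3 like Zdhhc4 (0.85) and Glo1 (0.81).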

How the data were processed

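RNA of sorted microglia was sequenced in 16 libraries, grouped by GEO's labels (7 WT, then in TG mice 5 Me-X04- and 4 Me-X04+). Per the labels and the study's methods, the authors trimmed reads with Trim Galore 0.4.4, aligned them to GRCm38 with STAR 2.5.4b, counted genes with featureCounts, filtered low genes, scaled by TMM and deposited log2 RPKM with a prior count from edgeR 3.24.3. Reads mapping to several places were kept, so near-identical genes can share reads. The deposited table also holds the authors' fold changes and p-values for 2 comparisons, which were not used.

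The deposited log2 RPKM were fitted with limma 3.58.1 in R 4.3.3 (3 groups, 1 fit, moderated with a trend, two-sided, Benjamini-Hochberg over 17951 genes). Calls needed an adjusted p under 0.05 and a log2 fold change of at least 0.7. Reads per gene were recovered from the steps between values, and 100% of values were whole within 0.01 reads; they give the depth and a voom alternative. No count test was the main test because the deposited unit is log2 RPKM. The fit was tested on simulated data.

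The 10 genes, the lists and the rules were chosen with earlier results of these data known. Named genes are the 10 members, up to 4 called genes per list by smallest p, the 2 genes most correlated with each member over 16 libraries, and other called list genes, named after their values were seen. A number is read as 1 animal across the TG groups. Deviations of pairs with the same number from the group means correlated at 0.292 to 0.329 (4 pairs). Other numbers within a set gave 0.221 to 0.332, and these ranges overlapped. P-values against WT measure the spread between libraries, which are read as separate animals within a group. Alternatives covered scaling, pseudocounts of 1 and 0.1, a filter at a mean log2 RPKM of 0, pairing, set terms, voom and leaving out each library. The fits within set A or set B, and the alternatives for list genes, were chosen after seeing the data. Positions of genes are from Gencode M21 on GRCm38 and promoter sequences from RefSeq on GRCm38.p6. Python 3.11.15 and matplotlib 3.10.9 drew the figures.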

Additional observations from a re-analysis of the deposited data

Results flagged for a closer look

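One value stood apart from its group. Nfkbie in WT replicate 3 was at 1.90 log2 RPKM, the lowest of 7, while the next WT library was at 2.84, and the gap was 0.577 of the whole range of the group, past the 95% limit for 7 values. Of 30 groups of values tested this way, 1 was marked, and chance marks about 1 in 20 groups. Without this library the call of Nfkbie against WT remained.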

How the results depend on the processing

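Nfkbiz against WT was called in 31 of 31 alternatives, Nfkbie against WT in 30 and Rel against WT in 29, and Nfkbie between the TG groups in 23 of 32. Between the TG groups the count of called members, 1, became 2 under quantile normalization, scaling by reads outside mitochondrial genes, a pseudocount of 1 and voom, 3 with a set term, and 0 with only the 2 groups, with the replicate block (in both fits) and within set A. Leaving out 1 library gave 0 to 2. The calls over all genes moved too, from 986 in the main fit. They were 828, 988, 980 and 1025 in the fits with 2 members, in the order named, and 2142 with a set term. In the fits with 0 members they were 470 with only the 2 groups, 894 and 1079 with the replicate block and 85 within set A. Leaving out 1 library gave 552 to 1100. Scaling by reads outside mitochondrial genes moved the median of all genes from -0.09 to -0.36 between the TG groups (from -0.11 to -0.26 against WT), so that 31.2% of the called genes rose where 62.6% had, and 50.8% rose under quantile normalization; members are to be read relative to this shift. Causes of these changes were not tested.

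The difference of class means moved in WT to 1.08 without Rel and -0.53 without Relb. In TG Me-X04- it moved to -0.028 with a pseudocount of 1, 0.50 without Nfkb1, -0.28 without Nfkb2, 0.87 without Rel, 0.56 without Rela and -0.43 without Relb. In TG Me-X04+ it moved to 0.47 without Rel, -0.71 without Relb and 0.42 without Nfkbie. No member called in a comparison changed sign there. Uncalled members near 0 did. Between the TG groups Relb became 0.095 with array weights, 0.31 with quantile normalization, 0.010 with a pseudocount of 1, 0.044 with the replicate block, 0.025 with a set term and 0.46 within set B. Ikbkb became -0.037 with array weights, -0.084 with quantile normalization, -0.20 with scaling outside mitochondrial genes and -0.12 within set B. Tnfaip3 became 0.42 within set A, and within set B Nfkb1 became -0.10 and Rela 0.092. For TG Me-X04- against WT, Rela became -0.065 with array weights and -0.13 within set B, Nfkbia 0.11 with array weights and 0.049 with scaling outside mitochondrial genes, Tnfaip3 -0.00696 with median centring, -0.000368 with a set term and -0.38 within set A, Nfkb1 0.032 with scaling outside mitochondrial genes, 0.045 with the replicate block and 0.00911 within set A, and Nfkb2 0.036 with the replicate block. For TG Me-X04+ against WT, Nfkb1 became -0.15 with array weights and -0.27 within set B, Rela 0.023 with the replicate block and Tnfaip3 0.039 within set A.

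Leaving out 1 library gave ranges that cross 0 between the TG groups for Relb (-0.65 to 0.52), Tnfaip3 (-0.30 to 0.015) and Ikbkb (-0.025 to 0.19), for TG Me-X04- against WT for Nfkb1 (-0.14 to 0.017), Nfkb2 (-0.37 to 0.055), Nfkbia (-0.22 to 0.16) and Tnfaip3 (-0.12 to 0.19), and against WT for Rela (-0.31 to 0.10). Depth limits the precision of genes with few reads, which here were Nfkb2 (23 to 170 reads a library), Relb (0 to 127) and, in TG Me-X04+, Nfkbie (27 to 150). The replicate block changed no member's call other than those given in the report.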
